A study of Mus musculus with 8 samples.

Results

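The genes of oxidative phosphorylation were followed through meiotic prophase in mouse spermatocytes that had or lacked CNOT4, a RING-domain E3 ubiquitin ligase that belongs to the CCR4-NOT deadenylase complex. Members were taken by symbol: names beginning with Nduf and then a, b, c, s or v, the succinate dehydrogenase subunits Sdha to Sdhd, names beginning with Uqcr or Atp5, the nuclear Cox genes of the families from Cox4 to Cox8, and Cyc1, Cycs and Cyct. The rule found 93 of the 23235 symbols, and 90 of them were among the 15899 genes that exceeded 1 FPKM in some library and were tested. The 93 were made up of 36 genes of complex I, 4 of complex II, 9 of complex III, 2 cytochromes c, 20 of complex IV (Ndufa4 and Ndufa4l2 were counted there), 15 of ATP synthase and 7 that matched by name but encode no subunit. The 3 untested members were Cox4i2, Cox6a2 and Cox8b.

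RNA had been sequenced from spermatocytes of 6-week-old male C57BL/6 mice, with 2 libraries in each of 4 groups. The stages were LZ (leptotene with zygotene) and PD (pachytene with diplotene), and the genotypes were WT and Cnot4-null (Cnot4 fl/fl;Stra8-Cre), labelled Cnot4-KO, in which Cre is expressed from the germ-cell promoter Stra8 and deletes an exon. The methods describe cells sorted by flow cytometry after a DNA stain, and the labels do not mention a sort. Cnot4 itself was listed at 36.03 and 34.9 FPKM at LZ in WT, 43.2 and 34.6 at LZ in Cnot4-null, 76.6 and 73.1 at PD in WT, and 65.9 and 53.5 at PD in Cnot4-null. Genotypes are those of the labels: 1 value per gene cannot show the loss of an exon, so the Cnot4 level does not test them. The deposited values give no read counts, and the read totals listed with the study were not used.

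Oxidative phosphorylation makes ATP in the inner mitochondrial membrane: complexes I and II take electrons from NADH and succinate, complex III passes them to cytochrome c, complex IV gives them to oxygen, and ATP synthase uses the proton gradient that builds up on the way. Most subunits are encoded in the nucleus, and several have a form made in male germ cells beside the form of somatic tissues, among them testis cytochrome c (Cyct) and the complex IV subunits Cox6b2, Cox7b2 and Cox8c. Spermatocytes also silence the X chromosome during pachytene, and some autosomal genes of energy metabolism are germ-cell copies of X-linked ones.

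The promoters of cytochrome c and of subunit 6b of complex IV are shown as examples of pairs that split. Each has a member that rose and a member that fell between LZ and PD (values further on). The pairs of Cox7b2 with Cox7b and of Cox8c with Cox8a split likewise, and their promoters are not shown. The sequences are RefSeq's, from a promoter table on build GRCm38.p6 that covers 250 bases before to 50 after each start, and each was located by an exact and single match on mm9. They lie at chr6:50516519-50516818 (minus strand) for Cycs, chr2:76198461-76198760 (minus strand) for Cyct, chr7:31411084-31411383 (minus strand) for Cox6b1 and chr7:4704647-4704946 (minus strand) for Cox6b2. Capitals mark matches, on either strand, to letters typical of 5 factors: GCGCANGCG (NRF1), CCGGAAG (GABP and other ETS factors), AANATGGC (YY1), TGACGTNA (CRE) and AACNGNC (MYB). Matches may overlap.
Cycs: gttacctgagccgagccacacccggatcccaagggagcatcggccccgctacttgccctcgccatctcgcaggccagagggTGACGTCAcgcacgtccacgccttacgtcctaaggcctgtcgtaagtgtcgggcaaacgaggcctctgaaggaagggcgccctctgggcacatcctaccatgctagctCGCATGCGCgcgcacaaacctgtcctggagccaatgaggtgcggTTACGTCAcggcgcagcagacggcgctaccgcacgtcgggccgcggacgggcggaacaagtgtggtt
Cyct: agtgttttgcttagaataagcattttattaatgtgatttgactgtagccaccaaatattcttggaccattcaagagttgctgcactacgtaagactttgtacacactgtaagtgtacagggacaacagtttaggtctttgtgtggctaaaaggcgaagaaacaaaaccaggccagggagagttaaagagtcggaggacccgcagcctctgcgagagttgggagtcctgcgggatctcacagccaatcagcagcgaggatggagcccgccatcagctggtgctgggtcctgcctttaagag
Cox6b1: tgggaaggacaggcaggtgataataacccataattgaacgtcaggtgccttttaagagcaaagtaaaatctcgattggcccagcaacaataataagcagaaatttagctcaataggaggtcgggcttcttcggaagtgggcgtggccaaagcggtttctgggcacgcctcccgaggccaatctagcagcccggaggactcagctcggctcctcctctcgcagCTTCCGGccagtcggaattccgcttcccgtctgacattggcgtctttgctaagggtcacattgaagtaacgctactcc
Cox6b2: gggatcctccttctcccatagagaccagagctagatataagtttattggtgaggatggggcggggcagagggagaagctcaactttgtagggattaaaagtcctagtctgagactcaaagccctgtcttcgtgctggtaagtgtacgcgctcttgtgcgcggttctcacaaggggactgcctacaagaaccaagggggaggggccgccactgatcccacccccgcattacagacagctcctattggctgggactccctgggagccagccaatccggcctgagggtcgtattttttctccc

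The Cycs promoter held 1 NRF1 match and 2 CRE matches, the Cox6b1 promoter 1 GABP/ETS match, and the Cyct and Cox6b2 promoters none of the 5. Of the pairs not shown, the Cox7b promoter held 1 YY1 match, that of Cox8a 4 matches, to GABP/ETS and MYB, and that of Cox7b2 none. A match describes letters and is not evidence of binding. Promoter entries were found for 76 members. NRF1 letters stood in an entry of 28.9% of these members, of which 6 had more than 1 entry, and in 6.25% of all 32851 entries, YY1 letters in 19 of the 76 and in 6.05%, GABP/ETS letters in 22.4 and 8.86%, CRE letters in 6.58 and 2.93%, and MYB letters in 28.9 and 32.8%. Of the 22 members with NRF1 letters, 5 were called higher and 9 lower at PD in WT, and of the 53 tested members with an entry and no such letters, 15 and 16 were, where 21.6% of all tested genes were called higher and 36.2% lower. Of the 17 members with GABP/ETS letters, 1 was higher and 7 lower, and of the 58 tested without them, 19 and 18. For YY1 letters it was 6 and 5 of 19, for CRE 1 and 3 of 5, and for MYB 6 and 8 of 22. These splits were not tested. Members without an entry included Cox8c, Cyc1, Sdhc and Uqcrq.

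The isoform pairs differ in how far their proteins diverge, by alignment of GENCODE translations. Cyct and Cycs, 105 residues each, were identical at 86.7% of aligned positions, Cox6b2 and Cox6b1 at 54.7%, Cox7b2 and Cox7b at 40 of 80 positions, and Cox8c and Cox8a at 23.5%. Of the stretches of 50 bases in each member's transcript, a median of 0.0635% had an exact copy at another place in mm9. It was 0 for 46 members and over 20% for 17, among them Atp5g2 (all of them), Cycs (38.5%), Atp5g1 (29.4%), Atp5f1 (23.9%) and Cox8a (21.0%), and the FPKM values rest on uniquely mapped reads. What this did to the levels was not tested. It was 0 for Cyct, Cox6b2, Cox7b2 and Cox8c.

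The members were abundant in every library. Together they held 7.55 and 7.16% of the summed FPKM (small RNA entries left out) at LZ in WT, 7.35 and 6.88% at LZ in Cnot4-null, 8.98 and 9.003% at PD in WT, and 7.21 and 5.41% at PD in Cnot4-null. Complex I held 2.34 and 2.30% at LZ in WT, 2.41 and 2.18% at LZ in Cnot4-null, 2.67 and 2.59% at PD in WT, and 2.34 and 1.67% at PD in Cnot4-null. Complex IV held 2.24 and 2.04%, 2.02 and 1.98%, 3.74 and 3.82%, and 2.57 and 1.90% in the same order. Only the WT PD libraries stood above 3% for complex IV. ATP synthase held 1.78 and 1.72% at LZ in WT, 1.76 and 1.71% at LZ in Cnot4-null, 1.21 and 1.21% at PD in WT, and 1.21 and 1.01% at PD in Cnot4-null, so that all LZ values lay above all PD values. Complex III held between 0.636 and 1.04% of the sum, and complex II between 0.0579 and 0.103%. These shares are descriptions and were not tested.

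**Figure D1:**
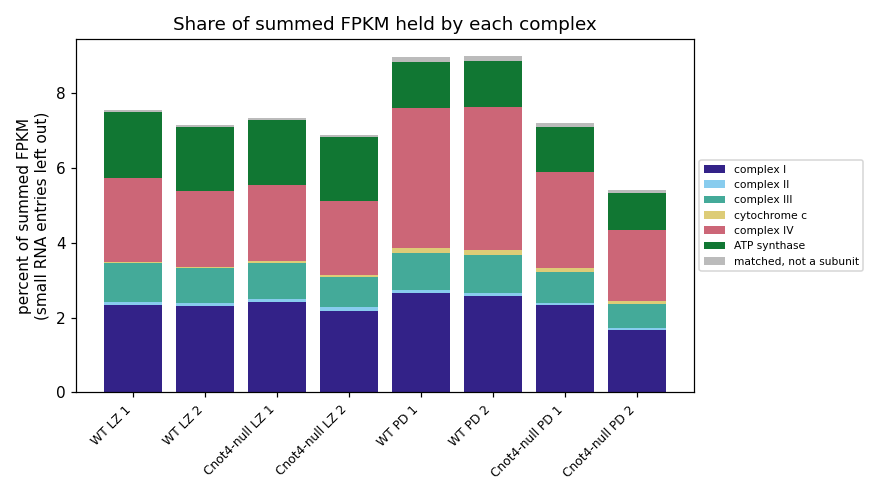
Stacked bars give the percent of summed FPKM (vertical axis, small RNA entries left out) held by each complex in each of the 8 libraries (horizontal axis). The bar of WT PD replicate 2 is the highest at 9.003% and that of Cnot4-null PD replicate 2 the lowest at 5.41%.

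**Figure D2:**
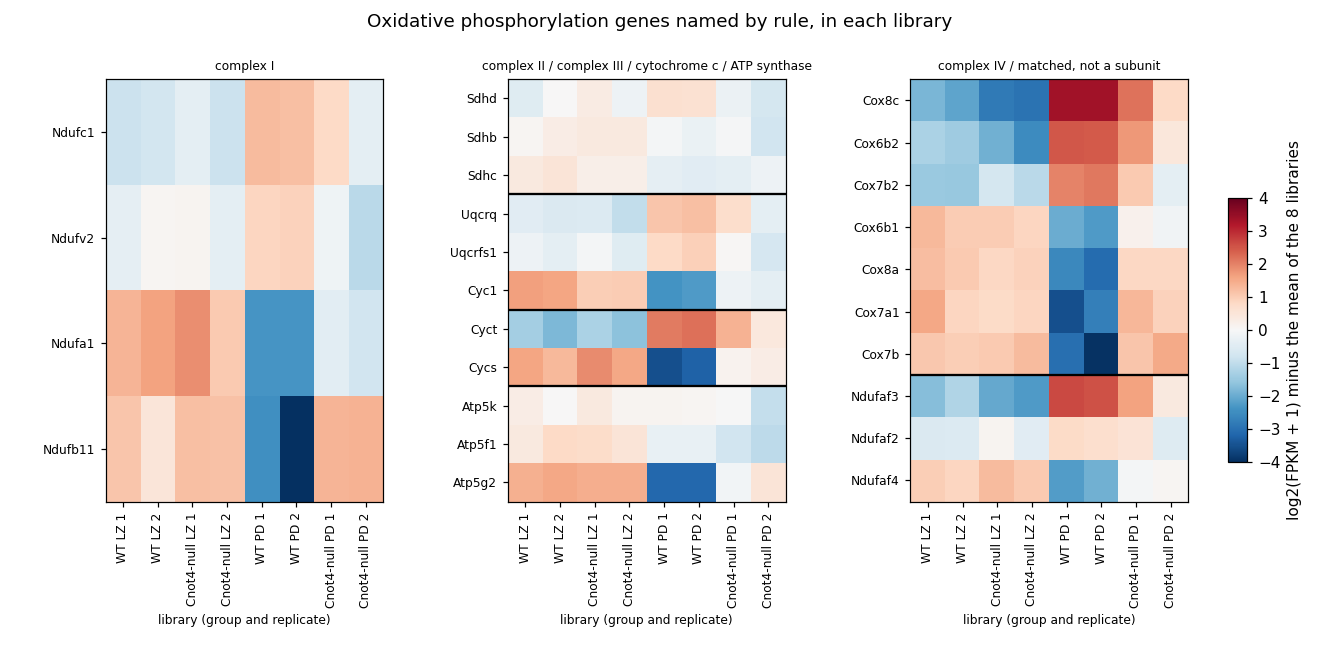
Each row is a tested member that the rule for named genes picked, grouped by complex, and each column a library. Colour gives log2(FPKM + 1) minus the member's mean over the 8 libraries, on a scale limited to 4 either way; the WT PD columns hold the deepest red (Cox8c, 10346 and 10518 FPKM) and the deepest blues (among them Cox7b, 3.21 and 1.18 FPKM), against 4586 and 1768 and 71.6 and 97.2 in Cnot4-null PD.

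Members of each complex but complex II spread further apart in WT PD than in the other groups by the standard deviation of log2 FPKM. Over the 36 genes of complex I, it was 1.31 and 1.31 at LZ in WT, 1.30 and 1.21 at LZ in Cnot4-null, 1.95 and 2.25 at PD in WT, and 1.46 and 1.28 at PD in Cnot4-null. Over the 15 genes of ATP synthase it was 0.99 and 0.94 at LZ in WT, 1.04 and 0.96 at LZ in Cnot4-null, 1.72 and 1.71 at PD in WT, and 1.25 and 0.95 at PD in Cnot4-null. In WT PD it was 2.17 and 2.16 for complex III, against 1.43 to 1.72 in the other libraries, and 0.87 and 0.77 for complex II, against 0.74 to 1.08. For complex IV it was taken over 9 genes, with Ndufa4l2 and the testis, somatic counterpart, heart and muscle and lung isoforms left out. There it was 1.91 and 1.98 in WT PD, against 1.07 to 1.18. The interquartile range was likewise widest in WT PD for complex I and ATP synthase, but not for complexes III and IV. The duplicates ranked the members alike, with Spearman correlations across all 93 members, the untested ones included, of 0.989 at LZ in WT, 0.993 at LZ in Cnot4-null, 0.998 at PD in WT and 0.971 at PD in Cnot4-null. Genes are not independent replicates. In Cnot4-null PD the levels themselves stood apart: the median member was higher in replicate 1 than in replicate 2 by 0.74 on the log2 scale, against 0.027 in WT PD.

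From LZ to PD in WT, the members split almost evenly. Testis isoforms and subunits of complexes I and III were among those that rose, while the somatic counterparts and the X-linked members fell. A gene was called when its adjusted p from limma was under 0.05. Of the 90 tested members, 25 were called higher at PD and 29 lower, and 36 were not called. Among all tested genes 57.8% were called, 21.6% higher and 36.2% lower. The median change was 0.019 on the log2 scale for the members and -0.32 for all genes, so the median member stood 0.34 above the median gene. That difference depended on the scaling. Quantile normalization moved the median of all genes to -0.063 and that of the members to -0.23, below it; rescaling to equal medians moved them to 0.052 and 0.90, and rescaling to equal sums to -0.47 and -0.25. The split of 25 higher and 29 lower became 26 and 41 with quantile normalization, 48 and 15 with equal medians, and 26 and 39 with equal sums. Leaving out WT LZ replicate 1 or 2 left 14 or 12 called higher, and leaving out WT PD replicate 1 or 2 left 13 or 12. Fitted without either Cnot4-null PD library, an alternative chosen after the data had been seen, 34 were called higher and 32 lower. Markers of other cells also differed between the WT stages. Sertoli markers (1 of 12 higher and 7 lower at PD) summed to 136 and 137 FPKM at LZ and to 19.96 and 37.8 at PD, led by Clu. Spermatogonia markers (1 of 8 higher and 6 lower) summed to 260.1 and 211 and to 53.7 and 73.1, led by Dmrt1 at LZ and Id4 at PD, and spermatid markers (0 of 8 higher and 2 lower) to 1849 and 1547 and to 433 and 279, led by Prm1 except in WT PD replicate 2, where Prm2 led. None of the 9 Leydig markers was called. Their part in the result was not tested.

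**Figure D3:**
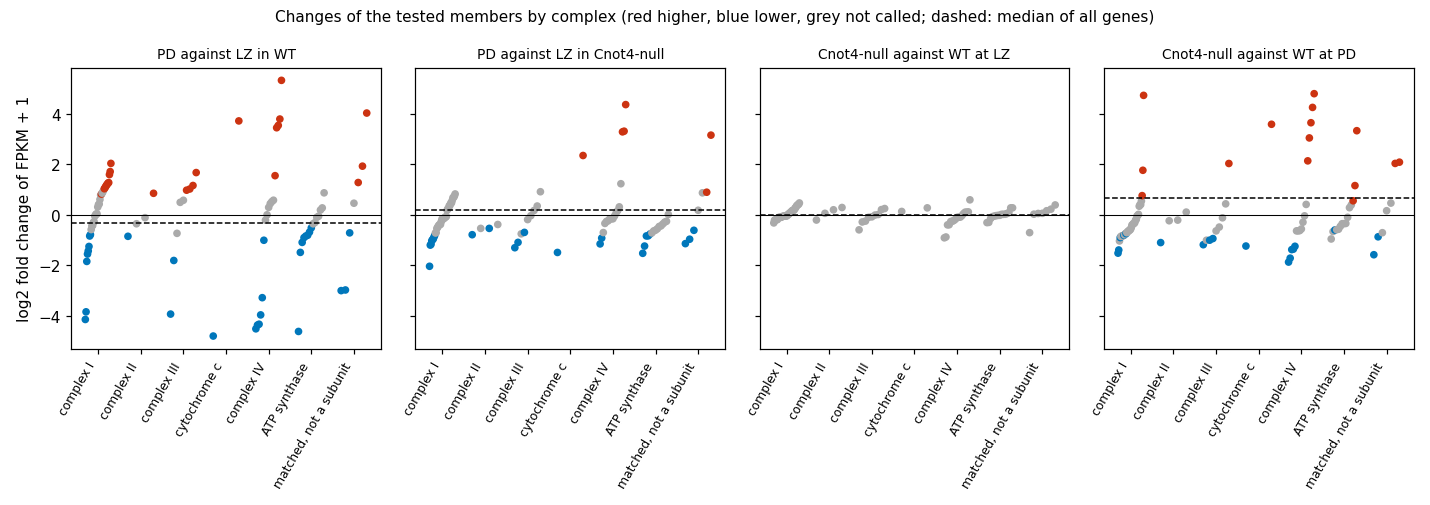
Each point is a tested member, with its log2 fold change of FPKM + 1 on the vertical axis and its complex on the horizontal axis, in 4 comparisons. Red points were called higher, blue points lower and grey points were not called; the dashed line is the median of all genes, which was -0.32, 0.19, 0 and 0.66 from left to right. No point is coloured in the comparison of genotypes at LZ.

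The testis isoforms were among the largest rises. Cyct, testis cytochrome c at chr2:76191999-76198507 (-) on mm9, was listed at 106 and 79.2 FPKM at LZ in WT, 114 and 88.7 at LZ in Cnot4-null, 1179 and 1267 at PD in WT, and 722 and 371 at PD in Cnot4-null. Both WT PD libraries were far above every LZ library, with the Cnot4-null PD libraries between. In WT it rose at PD by 3.72 (standard error 0.34, adjusted p = 9.46e-05) on the log2 scale. Cox8c, the testis form of subunit 8 of complex IV at chr12:104137516-104138744 (+), was listed at 283 and 236 FPKM at LZ in WT, 142 and 131 at LZ in Cnot4-null, 10346 and 10518 at PD in WT, and 4586 and 1768 at PD in Cnot4-null. It was the most abundant complex IV gene on average, and its WT PD values overlapped with no other group. It rose in WT by 5.33 (standard error 0.41, adjusted p = 5.41e-05). Cox6b2, at chr7:4703396-4704696 (-), encodes the testis form of the subunit that docks cytochrome c at complex IV. It was listed at 238 and 212 FPKM at LZ in WT, 150.3 and 98.7 at LZ in Cnot4-null, 3174 and 3101 at PD in WT, and 1891 and 789 at PD in Cnot4-null. Its order of groups was that of Cox8c, with Cnot4-null LZ lowest and WT PD highest. It rose in WT by 3.80 (standard error 0.41, adjusted p = 0.000198). Cox7b2, at chr5:71834063-71939444 (-), was listed at 331 and 326 FPKM at LZ in WT, 568 and 434 at LZ in Cnot4-null, 3663 and 4027 at PD in WT, and 1928 and 706 at PD in Cnot4-null. All PD values lay above all LZ values. It rose in WT by 3.54 (standard error 0.44, adjusted p = 0.000355). All 4 were called higher in WT under each scaling, with values between 3.27 and 6.22.

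The somatic counterparts went the other way in WT. Cycs, somatic cytochrome c at chr6:50512562-50516537 (-), was listed at 158 and 129 FPKM at LZ in WT, 194 and 154 at LZ in Cnot4-null, 3.68 and 4.64 at PD in WT, and 58.1 and 63.7 at PD in Cnot4-null. The WT PD libraries held only a trace of the LZ level, and Cnot4-null PD stood in between. Its level in WT fell by 4.80 (standard error 0.21, adjusted p = 1.66e-05). Cox6b1, at chr7:31401993-31411170 (-), was listed at 1082 and 884 FPKM at LZ in WT, 892 and 786 at LZ in Cnot4-null, 109 and 90.8 at PD in WT, and 490.1 and 397 at PD in Cnot4-null, and in WT fell by 3.28 (standard error 0.22, adjusted p = 3.28e-05). Cox8a, at chr19:7289648-7292106 (-), was listed at 693 and 599 FPKM at LZ in WT, 522 and 549 at LZ in Cnot4-null, 48.1 and 33.7 at PD in WT, and 514 and 519.9 at PD in Cnot4-null. Its Cnot4-null PD values were near those of Cnot4-null LZ, while both WT PD values were far below every other library. From LZ to PD in WT it fell by 3.97 (standard error 0.22, adjusted p = 2.03e-05). Cox7b, X-linked at chrX:103211039-103217789 (+), was listed at 70.7 and 66.3 FPKM at LZ in WT, 68.7 and 80.3 at LZ in Cnot4-null, 3.21 and 1.18 at PD in WT, and 71.6 and 97.2 at PD in Cnot4-null. The Cnot4-null PD libraries lay in the LZ range or above it. In WT it fell by 4.52 (standard error 0.33, adjusted p = 4.29e-05).

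A ratio of isoforms within a library is free of any scaling between libraries. The log2 ratio of Cyct to Cycs was -0.57 and -0.70 at LZ in WT, -0.76 and -0.80 at LZ in Cnot4-null, 8.32 and 8.09 at PD in WT, and 3.64 and 2.54 at PD in Cnot4-null. For Cox6b2 to Cox6b1 it was -2.18 and -2.06, -2.57 and -2.99, 4.87 and 5.09, and 1.95 and 0.99 in the same order of groups. For both pairs the somatic form led in every LZ library and the testis form in every PD library. For Cox8c to Cox8a the ratios were -1.29 and -1.34, -1.87 and -2.06, 7.75 and 8.29, and 3.16 and 1.77, with the same change of the leading form. For Cox7b2 to Cox7b they were 2.23 and 2.30, 3.05 and 2.43, 10.15 and 11.74, and 4.75 and 2.86. Here the testis form led already at LZ. In all 4 pairs the WT PD ratios were the highest, and the Cnot4-null PD ratios lay above all LZ ratios except for Cox7b2, where 2.86 in Cnot4-null PD replicate 2 was below 3.05 in Cnot4-null LZ replicate 1. The 4 testis isoforms together held 0.137 and 0.127% of the summed FPKM at LZ in WT, 0.130 and 0.117% at LZ in Cnot4-null, 2.202 and 2.29% at PD in WT, and 1.08 and 0.589% at PD in Cnot4-null. Their somatic counterparts held 0.285 and 0.250%, 0.224 and 0.244%, 0.0197 and 0.0158%, and 0.134 and 0.175%. The ratios were described per library and not tested.

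**Figure D4:**
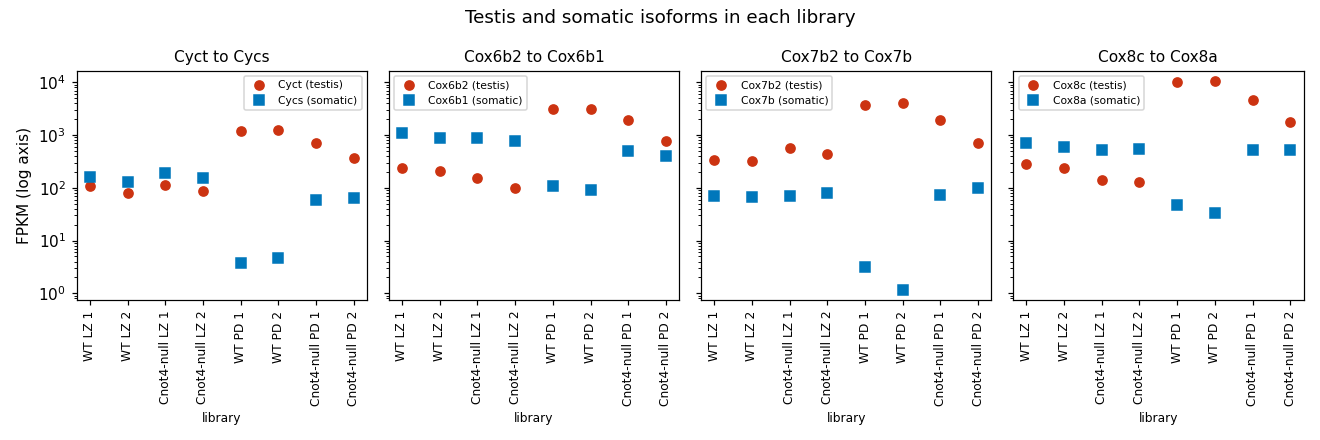
FPKM (vertical log axis) of the testis isoform (red circles) and the somatic isoform (blue squares) in each of the 8 libraries, 1 panel per pair. The symbols are farthest apart in WT PD, where Cyct was at 1179 and 1267 FPKM and Cycs at 3.68 and 4.64, and closer together in Cnot4-null PD, at 722 and 371 and 58.1 and 63.7.

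Complex I, the NADH dehydrogenase, had members in both directions. Of its 36 genes, 11 were called higher and 8 lower at PD in WT, and 17 were not called (30.6 and 22.2%, where all tested genes had 21.6 and 36.2%). Ndufc1, a small membrane-arm subunit at chr3:51208599-51212910 (-) and the most abundant of the 36 on average, was listed at 847 and 919 FPKM at LZ in WT, 1164 and 851 at LZ in Cnot4-null, 3704 and 3549 at PD in WT, and 2679 and 1165 at PD in Cnot4-null. Both WT PD values were above all others. It rose in WT by 2.04 (standard error 0.39, adjusted p = 0.00305). Ndufv2, which carries an iron-sulfur cluster in the NADH-binding module, was listed at 274 and 365 FPKM at LZ in WT, 377 and 268 at LZ in Cnot4-null, 638 and 659 at PD in WT, and 308 and 165 at PD in Cnot4-null. It was highest in WT PD, and Cnot4-null PD replicate 2 was the lowest library. In WT it rose by 1.03 (standard error 0.33, adjusted p = 0.0313), a call that ended when any WT library was left out (adjusted p between 0.0608 and 0.180), without Cnot4-null LZ replicate 2 (0.0504) and with no filter on genes (0.0915). The largest falls were those of X-linked members. Ndufb11, at chrX:20192452-20194745 (-), was listed at 62.3 and 39.9 FPKM at LZ in WT, 67.2 and 65.5 at LZ in Cnot4-null, 4.34 and 0.542 at PD in WT, and 74.8 and 76.00 at PD in Cnot4-null. The WT PD values differed from each other but lay below every other library. In WT it fell by 4.15 (standard error 0.53, adjusted p = 0.000418). Ndufa1, at chrX:34727583-34731158 (-), was listed at 1275 and 1508 FPKM at LZ in WT, 1787 and 1018 at LZ in Cnot4-null, 95.7 and 95.4 at PD in WT, and 370.4 and 289 at PD in Cnot4-null, and in WT fell by 3.85 (standard error 0.30, adjusted p = 5.30e-05). Among the other subunits called lower were Ndufs7 (-1.25) and Ndufs8 (-1.55), which carry iron-sulfur clusters, and Ndufa13 (-0.78) and Ndufv1 (-0.84), whose changes became 0.10 and 0.039 with equal medians. All 4 were named after their values had been seen.

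Complex II, succinate dehydrogenase, takes part in the citric acid cycle as well. Its most abundant gene, the iron-sulfur subunit Sdhb at chr4:140517118-140535108 (+), was listed at 301 and 349 FPKM at LZ in WT, 373 and 371 at LZ in Cnot4-null, 271 and 237 at PD in WT, and 276 and 168 at PD in Cnot4-null, with a change in WT of -0.35 (standard error 0.26, adjusted p = 0.291) that was not called, but was with quantile normalization (-0.86) and equal sums (-0.63). The membrane anchors moved apart. Sdhd, at chr9:50404443-50411954 (-), was listed at 61.2 and 87.4 FPKM at LZ in WT, 108 and 74.1 at LZ in Cnot4-null, 133 and 132 at PD in WT, and 72.9 and 51.8 at PD in Cnot4-null. WT PD was above all other libraries, and it rose in WT by 0.85 (standard error 0.28, adjusted p = 0.0342). The call ended without WT LZ replicate 1 or either WT PD library (adjusted p between 0.124 and 0.201), with quantile normalization (0.154), with equal sums (0.0530) and with no filter on genes (0.0835). Sdhc, at chr1:173057296-173080734 (-), was listed at 153 and 169 FPKM at LZ in WT, 139 and 139 at LZ in Cnot4-null, 91.8 and 85.3 at PD in WT, and 88.8 and 103 at PD in Cnot4-null. All PD values were below all LZ values, and in WT it fell by 0.85 (standard error 0.17, adjusted p = 0.00420), but with equal medians its change was 0.027. In complex III, the cytochrome bc1 complex, 4 of 9 genes were called higher and 2 lower in WT (21.6 and 36.2% of all tested genes). Uqcrq, a small subunit at chr11:53241424-53244333 (-) and the most abundant of the 9, was listed at 974 and 899.8 FPKM at LZ in WT, 919 and 675 at LZ in Cnot4-null, 2916 and 3068 at PD in WT, and 2175 and 1016 at PD in Cnot4-null. It was highest in WT PD and rose in WT by 1.67 (standard error 0.37, adjusted p = 0.00578). Uqcrfs1, the Rieske iron-sulfur protein, was listed at 141 and 125 FPKM at LZ in WT, 153 and 117 at LZ in Cnot4-null, 283 and 314 at PD in WT, and 169 and 101 at PD in Cnot4-null, and rose in WT by 1.16 (standard error 0.28, adjusted p = 0.00896). The call ended without WT LZ replicate 2 or without WT PD replicate 2, at adjusted p of 0.0593 and 0.0608.

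Cytochrome c1, encoded by Cyc1 at chr15:76173953-76176364 (+), is the subunit of complex III that hands electrons to cytochrome c. It was listed at 354 and 335 FPKM at LZ in WT, 225 and 229.5 at LZ in Cnot4-null, 20.4 and 22.8 at PD in WT, and 98.2 and 85.1 at PD in Cnot4-null. The 4 groups did not overlap, with WT LZ highest and WT PD lowest. Its level in WT fell by 3.93 (standard error 0.17, adjusted p = 1.66e-05). Its fall thus stood beside that of Cycs, its somatic partner, and the rises of Uqcrq and Uqcrfs1 in the same complex.

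In complex IV, cytochrome c oxidase, 5 of the 17 tested genes were called higher in WT and 6 lower, the isoform pairs included (21.6 and 36.2% of all tested genes). Ndufa4, once assigned to complex I and now to complex IV, was listed at 1405 and 1170.5 FPKM at LZ in WT, 1265 and 1027 at LZ in Cnot4-null, 65.8 and 56.6 at PD in WT, and 535 and 490.2 at PD in Cnot4-null. WT PD was far below all other libraries, and in WT it fell by 4.37 (standard error 0.21, adjusted p = 1.69e-05). Its paralog AA467197, which lies outside the rule, was listed at 41.4 and 76.6 FPKM at LZ in WT, 33.96 and 28.4 at LZ in Cnot4-null, 3547 and 4096 at PD in WT, and 1298 and 649.8 at PD in Cnot4-null. Here WT PD was far above all other libraries, with Cnot4-null PD next, and AA467197 rose in WT by 6.05 (standard error 0.39, adjusted p = 3.16e-05). Both genes were named after their values had been seen. Cox7a1, the heart and muscle form of subunit 7a at chr7:30969190-30971047 (+), was listed at 32.6 and 19.9 FPKM at LZ in WT, 18.4 and 19.9 at LZ in Cnot4-null, 0 and 0.722 at PD in WT, and 27.7 and 20.9 at PD in Cnot4-null. WT PD was at or near 0, below every other library. From LZ to PD in WT it fell by 4.34 (standard error 0.35, adjusted p = 6.25e-05). The heart and muscle forms Cox6a2 and Cox8b were at 0 in all libraries except WT PD replicate 2, where Cox6a2 was at 0.258 FPKM. Cox4i2, the lung form of subunit 4, was listed at 0.595 and 0.281 FPKM at LZ in WT, 0.636 and 0.844 at LZ in Cnot4-null and at 0 in all PD libraries. Cox6c, a ubiquitous small subunit, was listed at 2917 and 2577 FPKM at LZ in WT, 3171 and 2534 at LZ in Cnot4-null, 3849 and 4039 at PD in WT, and 3308 and 1946 at PD in Cnot4-null, and its change in WT of 0.52 (standard error 0.31, adjusted p = 0.188) was not called, but was with quantile normalization (0.56, adjusted p = 0.00748) and with equal medians (1.41, 0.00664). It was named after its values had been seen.

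ATP synthase had 8 of 15 members called lower in WT and 0 higher (36.2 and 21.6% of all tested genes), a split that depended on the scaling. Atp5j, a subunit of the stator stalk, changed by 0.87 (standard error 0.35, adjusted p = 0.0661), and was called higher with quantile normalization (0.56, adjusted p = 0.0360), equal sums (0.60, 0.0360) and equal medians (1.76, 0.00383). With equal medians Atp5h (1.08) and Atp5j2 (1.16) were called higher as well, and of the 8 called lower only Atp5g2 remained so. These members, Atp5g2 aside, were named after their values had been seen. Atp5k, subunit e of the membrane part and the most abundant of the 15, was listed at 2924 and 2392 FPKM at LZ in WT, 3104 and 2552 at LZ in Cnot4-null, 2569 and 2524 at PD in WT, and 2359 and 1243 at PD in Cnot4-null, and its change in WT was -0.055 (standard error 0.33, adjusted p = 0.928). Atp5g2, at chr15:102493299-102501478 (-), is 1 of 3 genes for the c subunit that forms the rotating ring. It was listed at 646 and 697 FPKM at LZ in WT, 647 and 648 at LZ in Cnot4-null, 26.3 and 26.2 at PD in WT, and 221 and 340.0 at PD in Cnot4-null. WT PD was far below LZ, with Cnot4-null PD between. In WT it fell by 4.62 (standard error 0.23, adjusted p = 1.80e-05). Every stretch of 50 bases of its transcript has a copy elsewhere in mm9, and what this did to its values was not tested. Within the c family, Atp5g2 held 45.5 and 50.1% of the summed FPKM at LZ in WT, 43.0 and 45.4% at LZ in Cnot4-null, 6.77 and 6.31% at PD in WT, and 24.3 and 34.8% at PD in Cnot4-null. Atp5g3 held 22.7 and 25.9% at LZ in WT, 22.6 and 24.7% at LZ in Cnot4-null, 57.7 and 60.6% at PD in WT, and 36.1 and 38.2% at PD in Cnot4-null, so that the leading gene of the family differed between LZ and WT PD. Atp5f1, subunit b of the stator stalk, was listed at 355 and 473 FPKM at LZ in WT, 450.0 and 383 at LZ in Cnot4-null, 218 and 219 at PD in WT, and 157 and 131 at PD in Cnot4-null, and in WT fell by 0.90 (standard error 0.22, adjusted p = 0.00869). The call ended with equal medians, where the change was -0.021, and without WT LZ replicate 2 or either WT PD library (adjusted p between 0.0510 and 0.0622). Equal medians also turned the direction of Atp5a1 (from -0.81 to 0.069), Atp5c1 (from -0.69 to 0.20), Atp5d (from -0.84 to 0.042) and Atp5g3 (from -0.52 to 0.37), and of the uncalled Atp5b (0.53), Atp5e (0.58), Atp5k (0.83) and Atp5o (0.78). All but Atp5k were named after their values had been seen.

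The 7 members that match by name and encode no subunit were called higher in 3 cases and lower in 3 (21.6 and 36.2% of all tested genes). Ndufaf3, an assembly factor of complex I, was listed at 34.6 and 49.3 FPKM at LZ in WT, 26.8 and 23.2 at LZ in Cnot4-null, 712 and 673 at PD in WT, and 350.3 and 152 at PD in Cnot4-null. WT PD was highest, then Cnot4-null PD, and it rose in WT by 4.03 (standard error 0.38, adjusted p = 0.000115). Ndufaf2, another assembly factor, was listed at 164 and 168 FPKM at LZ in WT, 266 and 179.6 at LZ in Cnot4-null, 416 and 395 at PD in WT, and 358 and 171 at PD in Cnot4-null, and rose in WT by 1.28 (standard error 0.36, adjusted p = 0.0169). With any 1 of the WT libraries left out the adjusted p was between 0.0719 and 0.0858, and with no filter on genes it was 0.0629. Ndufaf4, of the same group, was listed at 14.6 and 13.3 FPKM at LZ in WT, 17.9 and 15.1 at LZ in Cnot4-null, 0.672 and 1.06 at PD in WT, and 6.52 and 7.28 at PD in Cnot4-null, and in WT fell by 3.005 (standard error 0.24, adjusted p = 5.64e-05). Atp5s (1.93) was also called higher, and Cox4nb (-2.98), a subunit of the membrane protein complex of the endoplasmic reticulum, and Ndufaf1 (-0.72, or 0.14 with equal medians) were called lower. Atp5sl changed by 0.46 and was not called, but was with equal medians (1.30).

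In the Cnot4-null libraries the same transition held fewer calls, and testis isoforms were again among the rises. Of the 90 members, 6 were called higher and 24 lower at PD, while 46.0% of all tested genes were called, 27.8% higher and 18.2% lower. The members called higher were Cox8c (4.37), Cox6b2 (3.32), Ndufa4l2 (3.29), Ndufaf3 (3.16), Cyct (2.35) and Atp5s (0.90). Cox7b2, the remaining testis isoform, changed by 1.23 (standard error 0.44, adjusted p = 0.0525) and was not called, but was with quantile normalization (1.25, adjusted p = 0.00871), with equal sums (1.17, 0.0137), with a mean FPKM of at least 5 (0.0435), with the replicate block (0.0415) and without Cnot4-null PD replicate 2 (0.00295). Of the somatic counterparts, Cycs fell by 1.49 (standard error 0.21, adjusted p = 0.00178) and Cox6b1 fell by 0.92 (standard error 0.22, adjusted p = 0.0123), whereas Cox8a changed by -0.050 and Cox7b by 0.17, neither of them called. Cox6b1 was no longer called without Cnot4-null LZ replicate 1 (adjusted p = 0.0788) or in a fit of the Cnot4-null libraries alone (0.0733), and with equal medians Cox8a changed by -0.64 and was called. By complex, 8 genes of complex I, 2 of complex II, 3 of complex III, 2 of complex IV and 5 of ATP synthase were called lower. The median member changed by -0.28 and the median gene by 0.19. The counts rested on single libraries: without Cnot4-null PD replicate 1 they were 6 higher and 47 lower, and without replicate 2 they were 21 and 20; without Cnot4-null LZ replicate 1 or 2, 10 or 13 were lower. Quantile normalization gave 12 higher and 37 lower, equal medians 5 and 48, equal sums 11 and 36, and a fit of the Cnot4-null libraries alone 5 and 7. In the same comparison 9 of 9 Leydig, 8 of 8 spermatid, 5 of 5 myoid and 6 of 12 Sertoli markers were called higher (sums at PD in the next paragraphs). Of the tested markers, Hsd3b1, Hsd3b6, Lhcgr, Myh11, Des, Cnn1, Gata4 and Gata1 passed the filter only through Cnot4-null PD, which partly sets these counts. Leydig sums at LZ in Cnot4-null were 13.1 and 20.5 FPKM, led by Insl3, and spermatid sums 4083 and 728, led by Prm1 in replicate 1 and Prm2 in replicate 2. Their part in the result was not tested.

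At LZ, before pachytene, limma called no member between the genotypes, 0 higher and 0 lower of 90, and 1 had an unadjusted p under 0.05. Among all tested genes 0.0943% were called, 0.0692% higher and 0.0252% lower. The 1 was Cyc1, at 354 and 335 FPKM at LZ in WT and 225 and 229.5 at LZ in Cnot4-null, whose values did not overlap and whose change was -0.60 (standard error 0.17, adjusted p = 0.615). The lowest change was that of Cox8c, at 283 and 236 FPKM at LZ in WT and 142 and 131 at LZ in Cnot4-null, with -0.91 (standard error 0.41, adjusted p = 0.805). Cox6b2 also had lower values in both Cnot4-null LZ libraries, 150.3 and 98.7 against 238 and 212, with -0.88 (standard error 0.41, adjusted p = 0.815). The highest change was that of Cox7b2, at 331 and 326 at LZ in WT and 568 and 434 at LZ in Cnot4-null, with 0.59 (standard error 0.44, adjusted p = 0.942). A p that misses the threshold does not show that the values were equal. The median change was -0.021 for the members and 0 for all genes. Sertoli cell markers, 14 genes found, summed to 136 and 137 FPKM at LZ in WT and to 24.96 and 25.5 at LZ in Cnot4-null (most abundant gene at LZ in WT: Clu; Amh at 0 in all 4 libraries), with 0 of 12 tested called by limma and 7 at an unadjusted p under 0.05. Their part in the result was not tested.

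At PD the genotypes differed in many genes, and also in the markers of other testis cells, which are given before the members. The methods describe a sort of the cells by a DNA stain. The paper reports that the purity of the sorted cells was checked by immunofluorescence of SYCP3 and phosphorylated H2AX. The values do not show how each library was collected, nor whether the genotypes were sorted alike. Among all tested genes 41.6% were called higher and 11.5% lower, against which the marker counts are read. Some markers exceeded 1 FPKM only in Cnot4-null PD, and so were tested only through the group where they were high. These were Hsd3b1, Hsd3b6 and Lhcgr (Leydig), Myh11, Des and Cnn1 (myoid), Gata4 and Gata1 (Sertoli), Csf1r and Emr1 (macrophage) and Cdh5 (endothelial). The counts of markers called higher are therefore partly set by the filter. Of the Leydig cell markers, 9 of 9 were called higher in Cnot4-null PD, and their sum was 133 and 8.52 FPKM for WT PD against 10947 and 24218 for Cnot4-null PD, most of it Insl3 at 9669 and 21608. Spermatid markers, 8 of 8 called higher, summed to 433 and 279 in WT PD and to 16155 and 7550 in Cnot4-null PD, where Prm1 was the most abundant. Both lists were thus far above their WT PD level in each Cnot4-null PD library. Peritubular myoid markers (5 of 5 called higher) summed to 3.89 and 2.39 against 63.9 and 293, led by Acta2 in Cnot4-null PD and by Tagln in WT PD. Spermatogonia markers (7 of 8 higher) summed to 53.7 and 73.1 against 126 and 206, led by Dmrt1 in Cnot4-null PD and by Id4 in WT PD. Sertoli markers (7 of 12 higher, 1 lower) summed to 19.96 and 37.8 against 139.7 and 266, led by Clu, with Fshr at 0 in all 4 PD libraries and Amh at 0 in all but Cnot4-null PD replicate 2. Macrophage markers (3 of 7 higher, a share near that of all genes) summed to 2.87 and 1.96 against 25.3 and 109.6, led by Lyz2. Endothelial markers summed to 0.147 and 0.202 against 1.90 and 6.12. Only Cdh5 of that list was tested, because it reached 1.07 and 4.95 FPKM in Cnot4-null PD. It was called higher, a call that the filter selected and that is not read as a rise of the list. The globin genes were at 0 in all PD libraries. Markers of the labelled stage were present in all PD libraries, with 0 of 10 called higher and 4 lower in Cnot4-null PD, and sums of 12851 and 11975 for WT PD against 5844 and 2072 for Cnot4-null PD, led by Ldhc. Of the leptotene and zygotene markers, 4 of 9 were called higher, again near the share of all genes, and 3 lower, and they summed to 1242 and 1291 against 1124 and 614, led by Sycp3. Stra8, named after its values had been seen, was at 228 and 149 FPKM in Cnot4-null PD against 8.70 and 6.47 in WT PD, and rose by 4.44 (standard error 0.33, adjusted p = 0.000175). The part of these markers in the results at PD was not tested, and in bulk RNA fewer cells of a type and less RNA per cell cannot be told apart.

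**Figure D5:**
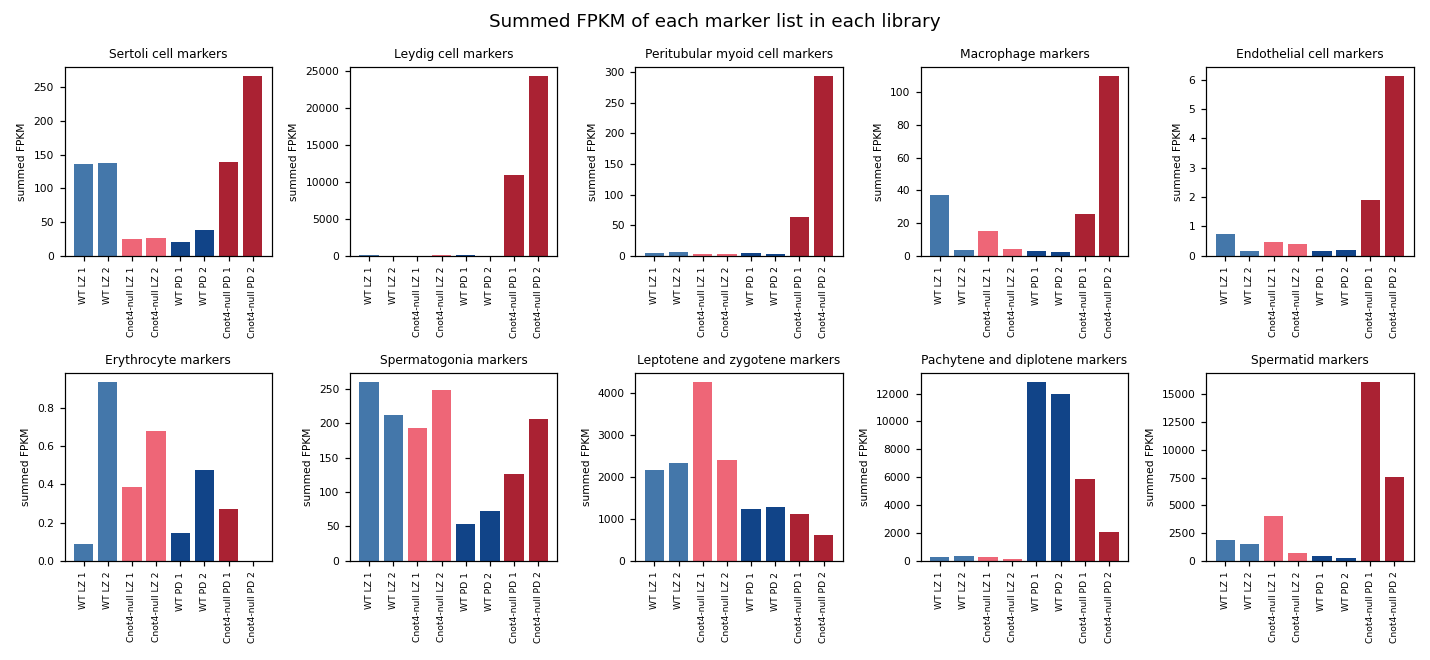
Bars give the summed FPKM (vertical axis, a scale of its own in each panel) of each marker list in each library; blue bars are WT and red bars Cnot4-null, lighter at LZ and darker at PD. In the Leydig panel the Cnot4-null PD bars reach 10947 and 24218, and in the pachytene and diplotene panel they stop at 5844 and 2072 against 12851 and 11975 in WT PD.

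Against this background, testis isoforms were lower in Cnot4-null PD than in WT PD and their somatic counterparts were higher. Of the 90 members, 15 were called higher in Cnot4-null PD and 18 lower, whereas 53.1% of all tested genes were called, 41.6% higher and 11.5% lower. The median change was -0.43 for the members and 0.66 for all genes, which put the median member at -1.09 relative to the median gene. With quantile normalization the medians were -0.11 and -0.10, so that the members no longer stood apart from all genes; with equal medians they were -1.86 and -0.21, and with equal sums -0.23 and 0.77. The split of 15 higher and 18 lower became 22 and 25 with quantile normalization, 11 and 77 with equal medians, and 23 and 25 with equal sums. The count of lower members depended on single libraries. It was 0 without WT PD replicate 1 and 0 without WT PD replicate 2, with 13 and 12 called higher, and it was 53 without Cnot4-null PD replicate 1 and 13 without replicate 2. Fitted to the PD libraries alone, 1 was lower and 14 were higher. The median of the members was -0.84 without Cnot4-null PD replicate 1 and -0.015 without replicate 2.

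The 4 testis isoforms, whose levels are given above, were all called lower at PD and all had lower values in both Cnot4-null libraries. Cox8c fell by 1.87 (standard error 0.41, adjusted p = 0.00859), or -2.54 relative to the median gene. Cox7b2 fell by 1.72 (standard error 0.44, adjusted p = 0.0146), Cox6b2 fell by 1.36 (standard error 0.41, adjusted p = 0.0271), and Cyct fell by 1.24 (standard error 0.34, adjusted p = 0.0186). Their direction held under every scaling, but none of the 4 was called without WT PD replicate 1 or without WT PD replicate 2 (adjusted p between 0.0535 and 0.115), nor in a fit of the PD libraries alone (between 0.113 and 0.206). Cox6b2 and Cyct were also not called without Cnot4-null PD replicate 2, at adjusted p of 0.0894 and 0.0642, and Cox6b2 without WT LZ replicate 1 or 2 (0.0562 and 0.0561). With no filter on genes the adjusted p was 0.0623 for Cyct, 0.0899 for Cox6b2 and 0.0623 for Cox7b2. The somatic counterparts were all called higher. Cox7b rose by 4.80 (standard error 0.33, adjusted p = 0.000152), or 4.14 relative to the median gene. Cox8a rose by 3.65 (standard error 0.22, adjusted p = 0.000108), Cycs by 3.59 (standard error 0.21, adjusted p = 0.000108), and Cox6b1 by 2.14 (standard error 0.22, adjusted p = 0.000409). Each Cnot4-null PD value of these 4 lay above both WT PD values, and they rose under every scaling, the smallest value being 0.71 for Cox6b1 with equal medians. Markers of Leydig and myoid cells were higher in the same 2 libraries, with sums of 10947 and 24218 FPKM and of 63.9 and 293 FPKM, and their part in the result was not tested.

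The remaining calls at PD lay in every complex. In complex I, 3 genes were called higher and 5 lower (8.33 and 13.9%, where all tested genes had 41.6 and 11.5%). Ndufb11 rose by 4.73 (standard error 0.53, adjusted p = 0.000568) and Ndufa1 by 1.77 (standard error 0.30, adjusted p = 0.00289), and both were above their WT PD values in each Cnot4-null library. With equal medians the change of Ndufa1 was 0.34 and was not called. Ndufv2 fell by 1.52 (standard error 0.33, adjusted p = 0.00861), without overlap between the genotypes. Its adjusted p was 0.0529 and 0.0586 without WT PD replicate 1 and 2, and 0.0546 in a fit of the PD libraries alone. Ndufc1 had lower values in both Cnot4-null libraries and a change of -1.04 (standard error 0.39, adjusted p = 0.0570), and was not called, but was under each of the 3 other scalings. Complex II had Sdhd lower, with a change of -1.10 (standard error 0.28, adjusted p = 0.0154), a call that ended without WT PD replicate 1 or 2 and without Cnot4-null PD replicate 2 (adjusted p between 0.0800 and 0.0867). Sdhc changed by 0.11 and Sdhb by -0.23, neither of them called, and with equal medians both were called lower (-1.32 and -1.67). In complex III, Cyc1 rose by 2.03 (standard error 0.17, adjusted p = 0.000246), while Uqcrfs1 fell by 1.18 (standard error 0.28, adjusted p = 0.0112) and Uqcrq changed by -1.01 (standard error 0.37, adjusted p = 0.0511), which was called under each of the 3 other scalings. The fall of Uqcrfs1 was not called without WT PD replicate 1 or 2 (adjusted p = 0.0549 and 0.0751) or in a fit of the PD libraries alone (0.0611).

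In complex IV, Cox7a1 rose by 4.26 (standard error 0.35, adjusted p = 0.000229) from values at or near 0 in WT PD, and Ndufa4 rose by 3.05 (standard error 0.21, adjusted p = 0.000156). AA467197, the paralog of Ndufa4, fell by 2.05 (standard error 0.39, adjusted p = 0.00505). In ATP synthase, Atp5g2 rose by 3.33 (standard error 0.23, adjusted p = 0.000157), and Atp5g1 (1.16) and Atp5g3 (0.56), the other c-subunit genes, were called higher too, although equal medians turned these to -0.27 and -0.88. Atp5g1 was named after its values had been seen. Atp5f1 fell by 0.60 (standard error 0.22, adjusted p = 0.0494), a call that ended under most of the alternatives, with adjusted p between 0.0510 and 0.303. Among the members that encode no subunit, Ndufaf4 rose by 2.09 (standard error 0.24, adjusted p = 0.000596) and Cox4nb by 2.04, and Ndufaf3 fell by 1.58 (standard error 0.38, adjusted p = 0.0122) and Atp5s fell by 0.87. The fall of Ndufaf3 was not called without WT PD replicate 1 or 2 (adjusted p = 0.0727 and 0.0653), in a fit of the PD libraries alone (0.0752) or with no filter on genes (0.0506). The comparisons between stages and between genotypes share the WT PD libraries, so a level that is high or low there enters both.

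The genotype effect differed between the stages for 12 members in the higher direction and 5 in the lower, by the interaction of stage and genotype in the same fit; 30.0% of all tested genes were called, 26.0% higher and 3.97% lower. A higher value means that Cnot4-null stood further above WT at PD than at LZ. Among those called were Cox7b at 4.68 (standard error 0.46, adjusted p = 0.00155), Cox7a1 at 4.65 (standard error 0.50, adjusted p = 0.00178), Ndufb11 at 4.33 (standard error 0.75, adjusted p = 0.00702), Cox8a at 3.92 (standard error 0.31, adjusted p = 0.000938) and Atp5g2 at 3.38 (standard error 0.33, adjusted p = 0.00147). Their order changed with the scaling, and that of Cox7a1 rests on 0 and 0.722 FPKM in WT PD. Cycs (3.31) and Cox6b1 (2.36), the other somatic isoforms, and Cyc1 (2.63) were called in the same direction. With equal medians Cox6b1 was at 0.89 with an adjusted p of 0.0552. Of the testis isoforms, only Cox7b2 was called, at -2.31 (standard error 0.62, adjusted p = 0.0302), and it was not called when any 1 of the LZ or WT PD libraries was left out (adjusted p between 0.0818 and 0.113) or with no filter on genes (0.104). Cyct was at -1.37 (standard error 0.47, adjusted p = 0.0652), Cox8c at -0.96 (standard error 0.58, adjusted p = 0.237) and Cox6b2 at -0.48 (standard error 0.58, adjusted p = 0.533). With equal medians these 3 were called (adjusted p = 0.00506, 0.0159 and 0.0291), as were Cyct and Cox8c without Cnot4-null PD replicate 1 (0.0114 and 0.00488). Cyct was also called with quantile normalization (0.0361), with equal sums (0.0252) and with the replicate block (0.0402). Sdhd (-1.39) and Ndufv2 (-1.53) were called lower, and neither was when any 1 of the LZ or WT PD libraries or Cnot4-null PD replicate 2 was left out (adjusted p between 0.0506 and 0.157), nor with no filter on genes (0.0934 and 0.124). No member was called lower when any 1 of the LZ or WT PD libraries was left out, and 47 were without Cnot4-null PD replicate 1. The counts of 12 and 5 became 19 and 10 with quantile normalization, 8 and 66 with equal medians, and 20 and 14 with equal sums. The Leydig and spermatid lists had 9 of 9 and 7 of 8 genes called higher in the same interaction, and their part in the result was not tested. The Leydig genes Hsd3b1, Hsd3b6 and Lhcgr passed the filter only through Cnot4-null PD.

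The X-linked members were Ndufa1, Ndufb11 and Cox7b, and all 3 were called lower at PD in WT, as were 36.2% of all tested genes. The X chromosome is silenced during pachytene, and its part in these falls was not tested. In Cnot4-null, Ndufa1 also fell by 2.04 (standard error 0.30, adjusted p = 0.00186), whereas Ndufb11 changed by 0.18 (standard error 0.53, adjusted p = 0.797) and Cox7b by 0.17 (standard error 0.33, adjusted p = 0.700). At PD the values of Ndufa1 in Cnot4-null, 370.4 and 289 FPKM, lay between those of WT PD, 95.7 and 95.4, and those of LZ, while Ndufb11, at 74.8 and 76.00, lay above all LZ values. The interaction of Ndufa1 was 1.81 (standard error 0.42, adjusted p = 0.0192), a call that ended with equal medians (adjusted p = 0.498), with no filter on genes (0.0603), without either WT library of LZ or of PD (between 0.0589 and 0.0832) and without Cnot4-null LZ replicate 2 (0.0545). Leydig markers summed to 10947 and 24218 FPKM at PD in Cnot4-null, and their part in the result was not tested.

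Genes that feed or build the chain were followed in 4 lists outside the rule. Their counts are read beside all tested genes, of which 21.6% were called higher and 36.2% lower at PD in WT, and 41.6 and 11.5% in Cnot4-null at PD. For pyruvate dehydrogenase and the citric acid cycle, 6 of 19 were called higher and 8 lower at PD in WT, and 8 higher and 5 lower in Cnot4-null at PD. Pdha2, the testis form of the alpha subunit of pyruvate dehydrogenase, was listed at 11.9 and 14.04 FPKM at LZ in WT, 17.5 and 14.04 at LZ in Cnot4-null, 193 and 204 at PD in WT, and 127 and 67.05 at PD in Cnot4-null, and rose in WT by 3.84 (standard error 0.31, adjusted p = 5.96e-05). Its X-linked somatic form Pdha1 was listed at 8.58 and 5.87 FPKM at LZ in WT, 13.4 and 12.6 at LZ in Cnot4-null, 0.551 and 0.138 at PD in WT, and 7.34 and 9.83 at PD in Cnot4-null, and in WT fell by 2.61 (standard error 0.30, adjusted p = 0.000245). The ratio of Pdha2 to Pdha1 on the log2 scale was 0.48 and 1.26 at LZ in WT, 0.39 and 0.16 at LZ in Cnot4-null, 8.45 and 10.53 at PD in WT, and 4.11 and 2.77 at PD in Cnot4-null, with WT PD highest and Cnot4-null PD next. At PD, Pdha2 was lower in Cnot4-null, with a change of -1.10 (standard error 0.31, adjusted p = 0.0207) and Pdha1 higher by 2.84 (standard error 0.30, adjusted p = 0.000436). Pdha2 was not called without WT PD replicate 1 or 2 (adjusted p = 0.0902 and 0.106), in a fit of the PD libraries alone (0.0871) or with no filter on genes (0.0611). Idh3g, an X-linked subunit of isocitrate dehydrogenase, was listed at 47.1 and 66.2 FPKM at LZ in WT, 58.2 and 54.97 at LZ in Cnot4-null, 0.455 and 0.520 at PD in WT, and 19.7 and 28.5 at PD in Cnot4-null, with -5.26 (standard error 0.26, adjusted p = 1.69e-05) in WT and 4.05 (standard error 0.26, adjusted p = 0.000130) at PD. Dlat, the acetyltransferase of the pyruvate dehydrogenase complex, was listed at 10.7 and 10.1 FPKM at LZ in WT, 9.12 and 9.53 at LZ in Cnot4-null, 46.6 and 52.8 at PD in WT, and 22.03 and 15.4 at PD in Cnot4-null, and was lower in Cnot4-null at PD, with a change of -1.38 (standard error 0.23, adjusted p = 0.00265).

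Among 7 carriers and channels of the mitochondrial membranes, 2 were called higher and 5 lower in WT, and 3 higher and 2 lower in Cnot4-null at PD. Slc25a31, the testis ADP/ATP carrier, was listed at 228 and 289.7 FPKM at LZ in WT, 283 and 246 at LZ in Cnot4-null, 98.1 and 122 at PD in WT, and 90.4 and 102 at PD in Cnot4-null. LZ libraries were above all PD libraries, so this germ-cell form, unlike Cyct, in WT fell by 1.22 (standard error 0.21, adjusted p = 0.00192). With equal medians the change was -0.34 and was not called. The X-linked carrier Slc25a5 was listed at 26.3 and 18.4 FPKM at LZ in WT, 29.6 and 24.5 at LZ in Cnot4-null, 3.96 and 3.40 at PD in WT, and 91.97 and 116 at PD in Cnot4-null. Its level in WT fell by 2.30 (standard error 0.25, adjusted p = 0.000199) and was higher in Cnot4-null at PD by 4.48 (standard error 0.25, adjusted p = 0.000104), above every LZ library. The log2 ratio of Slc25a31 to Slc25a5 was 3.11 and 3.98 at LZ in WT and 3.26 and 3.33 at LZ in Cnot4-null. At PD it was 4.63 and 5.16 in WT and -0.024 and -0.18 in Cnot4-null. Unlike the ratio of Pdha2 to Pdha1, it was lowest in Cnot4-null PD. Slc25a4, the carrier of heart and muscle, was listed at 10.2 and 14.6 FPKM at LZ in WT, 8.33 and 20.3 at LZ in Cnot4-null, 1.14 and 1.17 at PD in WT, and 48.8 and 96.3 at PD in Cnot4-null, with 5.01 (standard error 0.46, adjusted p = 0.000302) at PD. Vdac2, a channel of the outer membrane, was listed at 121 and 148 FPKM at LZ in WT, 142 and 130.3 at LZ in Cnot4-null, 675 and 666 at PD in WT, and 318 and 164 at PD in Cnot4-null, rose in WT by 2.32 (standard error 0.31, adjusted p = 0.000524) and was lower in Cnot4-null at PD, with a change of -1.55 (standard error 0.31, adjusted p = 0.00585), a call that ended in a fit of the PD libraries alone (adjusted p = 0.0564).

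Assembly factors outside the rule were called higher in 5 and lower in 17 of 37 cases in WT (21.6 and 36.2% of all tested genes), and higher in 11 and lower in 5 in Cnot4-null at PD (41.6 and 11.5%). Ecsit, an assembly factor of complex I, was listed at 77.1 and 57.00 FPKM at LZ in WT, 96.9 and 61.7 at LZ in Cnot4-null, 4.29 and 4.31 at PD in WT, and 24.3 and 21.9 at PD in Cnot4-null, and in WT fell by 3.67 (standard error 0.27, adjusted p = 4.33e-05). Nubpl, which delivers iron-sulfur clusters to complex I, was listed at 19.98 and 14.7 FPKM at LZ in WT, 13.6 and 12.2 at LZ in Cnot4-null, 2.72 and 2.25 at PD in WT, and 24.3 and 21.98 at PD in Cnot4-null, and was higher in Cnot4-null at PD by 2.79 (standard error 0.23, adjusted p = 0.000233). Pet100, listed as 2900053A13Rik and needed for complex IV, was at 41.8 and 40.3 FPKM at LZ in WT, 45.1 and 23.8 at LZ in Cnot4-null, 146 and 128 at PD in WT, and 107 and 35.9 at PD in Cnot4-null, and rose in WT by 1.71 (standard error 0.50, adjusted p = 0.0204). With any 1 of the WT libraries left out the adjusted p was between 0.0754 and 0.102, and with no filter on genes it was 0.0831. Sdhaf1, an assembly factor of complex II, was listed at 24.3 and 33.9 FPKM at LZ in WT, 16.4 and 11.8 at LZ in Cnot4-null, 38.4 and 39.8 at PD in WT, and 22.4 and 7.43 at PD in Cnot4-null, and was lower in Cnot4-null at PD, with a change of -1.52 (standard error 0.46, adjusted p = 0.0275). It was not called when any 1 of the Cnot4-null LZ or WT PD libraries or Cnot4-null PD replicate 2 was left out (adjusted p between 0.0524 and 0.120), in a fit of the PD libraries alone (0.0997) or with no filter on genes (0.0915). Of 15 tested regulators of mitochondrial biogenesis, 2 were called higher and 11 lower in WT, and 5 higher and 1 lower in Cnot4-null at PD. Ppargc1a, a coactivator of such genes, was listed at 0.149 and 0.0940 FPKM at LZ in WT, 0.0797 and 0.0234 at LZ in Cnot4-null, 2.48 and 2.79 at PD in WT, and 1.02 and 0.513 at PD in Cnot4-null, rose in WT by 1.70 (standard error 0.26, adjusted p = 0.000951) and was lower in Cnot4-null at PD, with a change of -1.06 (standard error 0.26, adjusted p = 0.0123), a call that ended without WT PD replicate 1 or 2 (adjusted p = 0.0577 and 0.0763). Ppargc1a exceeded 1 FPKM only in PD libraries and was tested only through them. All its values were low, so its calls rest on levels near the floor. Pprc1, a related coactivator, was listed at 23.7 and 21.1 FPKM at LZ in WT, 13.3 and 18.5 at LZ in Cnot4-null, 0.483 and 0.326 at PD in WT, and 6.68 and 19.2 at PD in Cnot4-null, in WT fell by 4.06 (standard error 0.44, adjusted p = 0.000202) and was higher in Cnot4-null at PD by 3.15 (standard error 0.44, adjusted p = 0.00137). The Leydig and spermatid marker sums given above differ between the same PD libraries, and their part in the result was not tested.

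Genes were ranked by how closely their levels followed Cyct across the 8 libraries, among 9347 genes with a mean of at least 5 FPKM. The first 5 were Galnt3, a glycosyltransferase gene, AV051173, Ppp1r42, which encodes a phosphatase regulator of the testis, the homeobox gene Alx1 and the histone gene Hist2h2be, with Pearson correlations of 0.998 to 0.999. With 8 libraries in 4 groups such a correlation mostly reflects the group means. Ppp1r42 was listed at 1.55 and 0.856 FPKM at LZ in WT, 1.66 and 1.43 at LZ in Cnot4-null, 174 and 168 at PD in WT, and 78.2 and 23.1 at PD in Cnot4-null. As for Cyct, both WT PD libraries were highest and all LZ libraries lowest, an order that the ranking itself selects. The means of Ppp1r42, Galnt3, Alx1 and Hist2h2be reached 5 FPKM only through the PD libraries. AV051173 was above 5 FPKM in every library.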

How the data were processed

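RNA from WT and Cnot4-null spermatocytes at LZ and PD had been sequenced in 2 libraries per group, described as biological duplicates. The labels name Trizol and a TruSeq kit, whereas the methods of the paper describe cell sorting and Smart-Seq2, and the values do not settle which was used. The authors mapped reads to mm9 with TopHat2 2.1.1, kept uniquely mapped reads and deposited FPKM from Cufflinks 2.2.1 with UCSC gene models, 1 value per symbol and library. The files hold no counts, and the read totals listed with the study were not used, so counting precision is not given.

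Genes with FPKM above 1 in at least 1 of 8 libraries were tested on log2(FPKM + 1), with a pseudocount of 1, by limma 3.58.1 in R 4.3.3 (4 groups, 5 contrasts, trended empirical Bayes). P values were adjusted by Benjamini-Hochberg over all tested genes in each contrast, and an adjusted p under 0.05 was a call. The fitting code was tested on simulated data. Tables, ratios and figures were made in Python 3.11.15 with pandas 2.3.3, scipy 1.17.1, numpy 2.4.6 and matplotlib 3.10.9, and sequence searches of 50 bases in mm9 with numba 0.67.0 and biopython 1.88.

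The members and lists were chosen with earlier results of these data known. Named genes were the isoform sets, the most abundant member of each complex, the called members with the largest rise and fall whose libraries did not overlap, the X-linked members, the 5 largest interactions and members that are not subunits. In pathway lists they were the largest rise and fall and the genes with testis and somatic forms, and in marker lists the most abundant gene and defining markers at 0. Marker lists covered Sertoli, Leydig, peritubular myoid, macrophage, endothelial and erythrocyte cells, spermatogonia, spermatids and both labelled stages. In WT, 10 of 10 markers of pachytene and diplotene were called higher at PD, and of 9 markers of leptotene and zygotene 6 were lower and 1 higher. Among all tested genes 21.6% were called higher and 36.2% lower. In Cnot4-null, 8 of 10 were higher, and of the 9, 8 were lower and 1 higher. There 27.8% of all tested genes were called higher and 18.2% lower. Most of these directions follow the stage labels.

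The alternatives were no filter, a mean FPKM of at least 5, a pseudocount of 0.1, quantile normalization, equal medians, equal sums, only the libraries compared, replicate number as a block, and each library left out in turn. A fit without both Cnot4-null PD libraries was added after seeing the data.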

Additional observations from a re-analysis of the deposited data

Results flagged for a closer look

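The genotype effect on Cox7b differed between stages by the interaction, at 4.68 on the log2 scale. For Cox7a1 the difference between stages was 4.65 by the same interaction. Ndufb11 had an interaction of 4.33, so its genotype effect differed between LZ and PD. The interaction for Cox8a was 3.92, a genotype effect that differed between stages. Atp5g2 differed between stages in its genotype effect, with an interaction of 3.38.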

How the results depend on the processing

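Of the values of named genes under the alternatives, 2265 kept their side of the threshold (uncalled values that changed sign included), 144 were weaker, 73 stronger and 3 changed sign with a call under either setting. Other members turned by equal medians, such as Atp5g3, are in the report and outside this count. The 3 reversed values were those of Sdhc with equal medians: 0.027 from LZ to PD in WT, -1.32 between genotypes at PD and -1.15 for the interaction. For counts of called members, the values beyond 1.5 times, and the range with 1 library left out whether or not it went beyond, were as follows. From LZ to PD in WT, the 25 higher became 14 with no filter and 48 with equal medians, and 12 to 34 with 1 library left out; the 29 lower became 15 with equal medians, and 21 to 32 with 1 left out. From LZ to PD in Cnot4-null, the 6 higher became 12 with quantile normalization, 11 with equal sums, 10 with the replicate block, and 5 to 21 with 1 left out; the 24 lower became 37 with quantile normalization, 48 with equal medians, 7 with only the libraries compared, and 10 to 47 with 1 left out. Between genotypes at PD, the 15 higher became 23 with equal sums, and 12 to 19 with 1 left out; the 18 lower became 7 with no filter, 77 with equal medians, 1 with only the libraries compared, and 0 to 53 with 1 left out. For the interaction, the 12 higher became 19 with quantile normalization, 20 with equal sums, and 11 to 17 with 1 left out; the 5 lower became 1 with no filter, 10 with quantile normalization, 66 with equal medians, 14 with equal sums, and 0 to 47 with 1 left out. At LZ the counts were 0 and 0 under every alternative. Beyond the spread of duplicates, a pseudocount of 1 moved the ratio of Cyct to Cycs in WT PD to 7.90 and that of Pdha2 to Pdha1 to 7.23. The cause was not tested.

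With 2 libraries in each group the spread is pooled over groups, and a library left alone is assumed to vary like the others. The Cnot4-null PD duplicates stood apart in level, and their variance enters every contrast. Scaling between libraries rests on assumptions that FPKM cannot test, and the files hold no counts. Replicate numbers were not treated as pairs: residuals of libraries with the same number correlated at 0.194 between Cnot4-null LZ and Cnot4-null PD and at -0.0651 to 0.0826 between the other groups.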
